A study of Mus musculus with 8 samples.

Results

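The apolipoprotein L (Apol) genes of mouse chromosome 15 were followed in the pregnant uterus at embryonic day 8 (E8), with and without a treatment meant to deplete regulatory T cells. The 9 members, Apol6, Apol7a, Apol7b, Apol7c, Apol7e, Apol8, Apol9a, Apol9b and Apol10b, were taken by symbol from the 49585 genes of the count table, and 8 of them were among the 22693 genes with counts high enough to test. Apol7b had too few counts. The females were 8-week-old Foxp3DTR mice, which carry a receptor for diphtheria toxin at the locus of Foxp3, a gene that defines regulatory T cells. All had mated allogeneically, with males of the BALB/c strain. One group of 4 (replicates 1, 3, 4 and 5) received 1 µg of diphtheria toxin (DT) into the peritoneum at E1, E3, E5 and E7, a course that the labels describe as removing 85% of regulatory T cells. The other 4 females (replicates 1, 2, 4 and 6) received PBS on the same days. Both groups carried the receptor allele, and a group without it given toxin was not analysed here. The entire uterus with the fetal tissue in it was collected, so every value is a mixture of maternal and conceptus RNA, in which fewer cells of a type and less RNA per cell cannot be told apart.

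Apolipoprotein L proteins are mostly intracellular, unlike the apolipoproteins of plasma lipoproteins, and bind lipids and membranes through helices that resemble those of pore-forming proteins. The human relative APOL1 is known for lysing trypanosomes, and many family members are induced by interferons. In the mouse, Apol9a and Apol9b are interferon-stimulated genes with antiviral activity, Apol7c has been studied in dendritic cells, and Apol6 is named after a human gene linked to mitochondrial cell death.

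Stretches of promoter around the interferon-related motif are shown first, because they differ between the near copies Apol7b and Apol7e and are the same in Apol9a and Apol9b. They are RefSeq sequences of build GRCm38.p6 on chromosome 15, printed 5′ to 3′ along the strand of the gene. Apol9a is at chr15:77411124-77411183 (minus strand), Apol9b at chr15:77728991-77729050 (plus), Apol7e at chr15:77698809-77698874 (plus), Apol7b at chr15:77447475-77447535 (minus), Apol7c at chr15:77533355-77533414 (minus) and Apol10b at chr15:77596120-77596173 (minus). Capitals mark matches, on the opposite strand, to the core of the interferon-stimulated response element (ISRE), spelled GAAA, any 2 bases, GAAA.
Apol9a: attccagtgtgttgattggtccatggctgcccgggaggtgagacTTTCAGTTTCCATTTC
Apol9b: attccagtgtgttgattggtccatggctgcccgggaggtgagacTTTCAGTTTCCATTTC
Apol7e: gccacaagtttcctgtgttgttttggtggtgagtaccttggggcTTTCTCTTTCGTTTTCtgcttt
Apol7b: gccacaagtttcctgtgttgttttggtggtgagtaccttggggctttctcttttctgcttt
Apol7c: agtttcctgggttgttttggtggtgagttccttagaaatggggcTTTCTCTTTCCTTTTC
Apol10b: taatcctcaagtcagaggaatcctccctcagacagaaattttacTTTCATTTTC

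The promoter table, with 250 bases before to 50 after each start, held 8 of the 9 members, all but Apol6. The ISRE core, searched on both strands, was present in 5 of these 8, against 3.44% of all 32851 promoters of the same length. Members are counted as genes, with a match in any of their promoters, and the percentages are per promoter. Matches in near copies are not separate occurrences. Apol9a, Apol9b, Apol7c and Apol7e each had 2 cores that share 4 bases, and at least 2 matches occurred in 0.225% of all promoters. Apol10b had 1 core, which spans its RefSeq start site (positions -4 to 6). The GENCODE exons begin further upstream than the RefSeq starts in some members. They take in 12 bases of the printed stretches of Apol9a and Apol9b and 18 of those of Apol7e and Apol7b. By that annotation the cores of Apol9a, Apol9b and Apol7e span the start as well. Apol7a, Apol7b and Apol8 had none in this window. The interferon-gamma activated site, spelled TTCNNNGAA, was found in 0 of the 8 and in 8.3% of all promoters. A match is a description of the letters and not a binding site. Apol9a and Apol9b were identical over the 228 aligned bases upstream of their starts. Apol7b and Apol7e matched in 244 of 250 aligned columns, with 1 mismatch and a single gap of 5 bases in Apol7b, and that gap lies in the block of ISRE cores.

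The 9 genes lie on chromosome 15 of GRCm38 between positions 77044729 and 77757003, a span of 712 kb. Apol6 (ENSMUSG00000033576, 77044729 to 77057106, plus strand) stands 331 kb away from the other 8, which fill 369 kb from Apol7a to Apol8. Apol7a (ENSMUSG00000010601, 77388219 to 77399110), Apol9a (ENSMUSG00000057346, 77403789 to 77411135), Apol7b (ENSMUSG00000068252, 77422209 to 77447492), Apol7c (ENSMUSG00000044309, 77524852 to 77533316), Apol10b (ENSMUSG00000050014, 77583819 to 77596125) and Apol8 (ENSMUSG00000056656, 77747798 to 77757003) are on the minus strand. Apol7e (ENSMUSG00000071716, 77698857 to 77719285) and Apol9b (ENSMUSG00000068246, 77729039 to 77736382) are on the plus strand. The most similar copies are far apart in the cluster: 318 kb separate Apol9a from Apol9b and 251 kb separate Apol7b from Apol7e.

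Sequence identity limits how well reads can be assigned within the family. The coding sequences of Apol7b and Apol7e were 98.92% identical and those of Apol9a and Apol9b 98.49%, as the matrix of coding-sequence identity shows. Apol7c was 88.8% identical to Apol7b and 88.44% to Apol7e, and Apol7a was 80.14% identical to Apol7c. Apol6 was the most distant member, at 36.83% to 44.84% of its alignment with the others. Counted over 75-base windows, about the length of a read, 60.37% of the exon sequence of Apol7e occurs in Apol7b, and 59.78% of Apol7b in Apol7e. Apol9b shared 43.29% of its windows with Apol9a and Apol9a 13.75% with Apol9b, the difference coming from the longer annotated exons of Apol9a. Apol7c shared 14.23% of its windows with other genes, Apol7a 7.51%, Apol10b 1.51%, Apol6 0.065% and Apol8 0%. Apol7e also overlaps Gm36329 on the opposite strand over 13.42% of its exon bases, and 64 exon bases of Apol6 overlap the myoglobin gene Mb. Counts of Apol7b, Apol7e, Apol9a and Apol9b are therefore uncertain as values of a single copy.

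**Figure D1:**
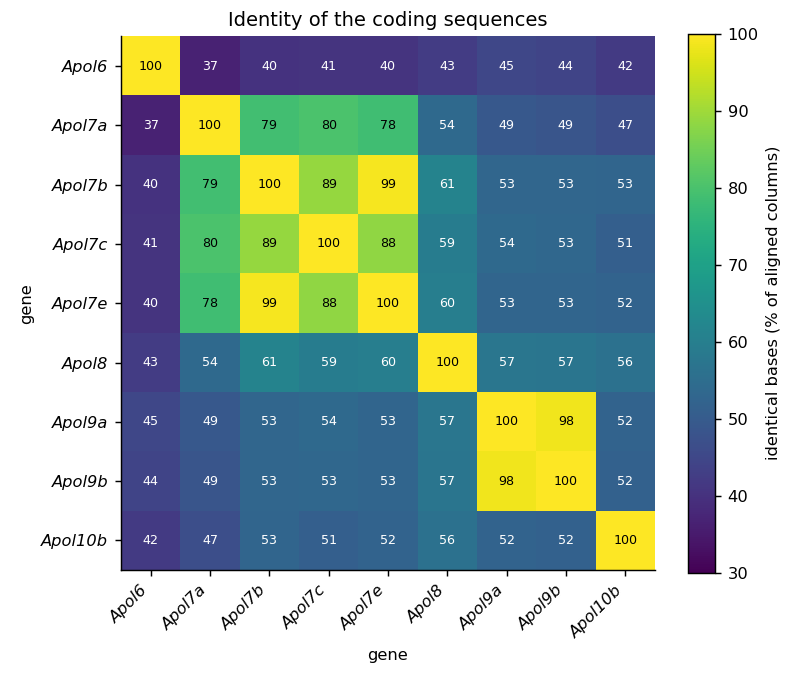
Identity of the coding sequences of the 9 members, as the percentage of aligned columns with the same base in a pairwise global alignment (colour and printed value, rows and columns are genes). Apol7b with Apol7e and Apol9a with Apol9b stand out at 98.92% and 98.49%, and Apol6 lies between 36.83% and 44.84% with every other member.

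Library totals ranged from 94794512 to 109847604 counts. Foxp3 did not check the labels: it measured 5.09 to 5.72 CPM (counts scaled to the TMM-adjusted library total) in the DT and 4.36 to 5.44 CPM in the PBS libraries, a log2 difference of 0.15 ± 0.10 (SE; edgeR adjusted p = 0.595), so libraries are named here by their label, DT or PBS. PBS-labelled replicates 1 and 2 stood apart. Their sample titles alone share the suffix S1, while PBS-labelled replicates 4 and 6 carry S2, DT-labelled replicates 1 and 3 S3 and DT-labelled replicates 4 and 5 S4. What the suffix marks is not given in the labels, and since each suffix occurs in 1 group, it and the treatment cannot be told apart. In PBS-labelled replicates 1 and 2 the conceptus score, the mean centred log2 CPM of the 14 tested genes of a list of 18 from yolk sac, trophoblast and embryonic blood, was 2.155 and 3.585, against -1.548 and -0.3543 for the other PBS-labelled libraries (replicates 4 and 6). The DT-labelled scores lay between -1.912 and -0.2457. Of these 14 genes edgeR and limma voom called 0. By edgeR 10 were lower at an unadjusted p under 0.05, against 3.98% of all genes. DESeq2, run without this count filter, called 5 of the list of 18 lower (Afp, Apoa4, Tpbpa, Gcm1 and Hba-x). Markers of the uterus were plentiful in all 8 libraries: the summed level of 11 decidual stroma genes was 3020 to 12700 CPM and that of 9 myometrium genes 3950 to 5080 CPM, with no gene of either list at 0 in any library.

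In the PBS-labelled uteri the family fell into an abundant set (Apol9b, Apol6, Apol10b, Apol9a) and a scarce set (Apol7a, Apol7e, Apol8, Apol7c, Apol7b). Per kilobase of exon, the PBS-labelled levels were 2.66 ± 1.34 CPM per kb for Apol9b, 1.81 ± 0.656 for Apol6, 0.905 ± 0.351 for Apol10b and 0.753 ± 0.339 for Apol9a (SD, n = 4). Within this set the libraries of neighbours in the order overlapped, so the order is not resolved. It also depended on the length used: per kilobase of coding sequence Apol6 came first with 8.26, before Apol9b with 5.21, Apol9a with 4.82 and Apol10b with 2.1 CPM per kb. The annotated exons of Apol9a total 5953 bases against 1821 for Apol9b, although both coding sequences have 930 bases. Apol7a followed at 0.231 ± 0.0513 and Apol7e at 0.167 ± 0.0156 CPM per kb of exon, and neither overlapped its neighbours in the order. Apol8 (0.0617 ± 0.0102) and Apol7c (0.0537 ± 0.0257) overlapped each other, and Apol7b was lowest at 0.0141 ± 0.0119 CPM per kb. In the DT-labelled libraries the same 4 genes led. Apol7e (0.415 ± 0.011 CPM per kb) then stood level with Apol7a (0.4 ± 0.0201), and Apol7c (0.164 ± 0.072) stood above Apol8 (0.0476 ± 0.00952).

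The members were proposed with the difference between the groups in view, so the values of DT-labelled against PBS-labelled libraries are a description and no test of them is offered as support. Apol7e, Apol10b and Apol7a were higher in every DT-labelled than in every PBS-labelled library. Apol7e measured 0.988, 1.04, 0.979 and 0.999 CPM in the DT-labelled libraries (replicates 1, 3, 4 and 5, the order used throughout). The PBS-labelled libraries were at 0.457, 0.371, 0.397 and 0.387 CPM (replicates 1, 2, 4 and 6). The 4 libraries of each group lay close together, with a coefficient of variation of 2.65% and 9.32%, and the group means of 1.0 ± 0.0265 and 0.403 ± 0.0376 CPM (SD, n = 4 each) were 2.48-fold apart. These means rest on 96 to 127 counts per DT-labelled and 36 to 42 per PBS-labelled library. Counting noise alone is expected to spread such counts more than this, so the closeness is not read as a stable level. The log2 fold change was 1.31 ± 0.14 (SE).

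Apol10b reached higher levels, with a coefficient of variation of 9.1% in the DT-labelled and 38.8% in the PBS-labelled libraries. It measured 4.66, 4.96, 5.73 and 5.39 CPM in the DT-labelled libraries and 1.7, 1.51, 3.3 and 1.91 CPM in the PBS-labelled libraries, in the same order of replicates. PBS-labelled replicate 4 was the highest of its group, and still below every DT-labelled library. The means were 5.18 ± 0.472 and 2.1 ± 0.817 CPM (SD, n = 4 each), 2.46-fold apart, with a log2 fold change of 1.30 ± 0.25 (SE). Apol7a measured 1.23, 1.13, 1.27 and 1.21 CPM in the DT-labelled and 0.62, 0.577, 0.925 and 0.68 CPM in the PBS-labelled libraries. The groups did not overlap, and PBS-labelled replicate 4 was again the highest of its group. Its means of 1.21 ± 0.0609 and 0.701 ± 0.156 CPM gave a log2 fold change of 0.79 ± 0.17 (SE).

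Apol7c had the largest fold change of the 8 tested members with all 8 libraries, from the fewest counts among the members with a positive one. Apol7e was above it without PBS-labelled replicates 1 and 2 (1.35 against 1.25 on the log2 scale) and with the conceptus covariate (1.33 against 1.05). Apol7c measured 0.459, 0.18, 0.469 and 0.243 CPM in the DT-labelled libraries, from 18 to 59 counts. In the PBS-labelled libraries Apol7c measured 0.0871, 0.0722, 0.189 and 0.0945 CPM, from 7 to 20 counts. DT-labelled replicates 1 and 4 were the high ones, and DT-labelled replicate 3 lay just under PBS-labelled replicate 4. The log2 fold change of Apol7c was 1.59 ± 0.43 (SE), with a 95% confidence interval of 0.61 to 2.58.

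Apol6, the most abundant member by counts, was high in 3 of the 4 DT-labelled libraries. Its levels were 6.92, 15.4, 15.5 and 18.1 CPM there and 7.37, 4.76, 11.9 and 8.62 CPM in the PBS-labelled libraries. DT-labelled replicate 1 lay below 3 of the PBS-labelled libraries, whereas the other DT-labelled libraries lay above all 4. The means were 14.0 ± 4.86 and 8.16 ± 2.95 CPM (SD, n = 4 each), and the log2 fold change was 0.78 ± 0.34 (SE; 95% confidence interval -0.02 to 1.57).

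Apol9a and Apol9b, the antiviral pair, overlapped widely between the groups. Apol9a measured 2.57, 8.0, 5.05 and 8.05 CPM in the DT-labelled and 5.26, 6.84, 2.14 and 3.68 CPM in the PBS-labelled libraries. Apol9b measured 2.71, 7.44, 5.2 and 8.44 CPM in the DT-labelled and 5.83, 7.59, 1.89 and 4.07 CPM in the PBS-labelled libraries. Each group held both high and low libraries: DT-labelled replicate 1 and PBS-labelled replicate 4 were the lowest of their groups for both genes. The copies moved in step, and the ratio of Apol9b to Apol9a stayed between 0.881 and 1.11 in all 8 libraries (51.29% of their coding windows are shared). The log2 fold changes were 0.40 ± 0.44 for Apol9a and 0.30 ± 0.46 for Apol9b (SE), with 95% confidence intervals of -0.6 to 1.4 and -0.76 to 1.36.

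Apol8 and Apol7b were not higher in the DT-labelled libraries. Apol8 measured 0.124, 0.18, 0.143 and 0.116 CPM there, from 12 to 18 counts, and 0.218, 0.155, 0.198 and 0.161 CPM in the PBS-labelled libraries, from 15 to 21 counts. DT-labelled replicate 3 fell within the PBS-labelled range, and the log2 fold change was -0.38 ± 0.23 (SE). Apol7b had 13 counts over the 4 DT-labelled and 14 over the 4 PBS-labelled libraries, with 1 to 8 counts in any library, too few to set against the level of its near copy Apol7e.

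**Figure D2:**
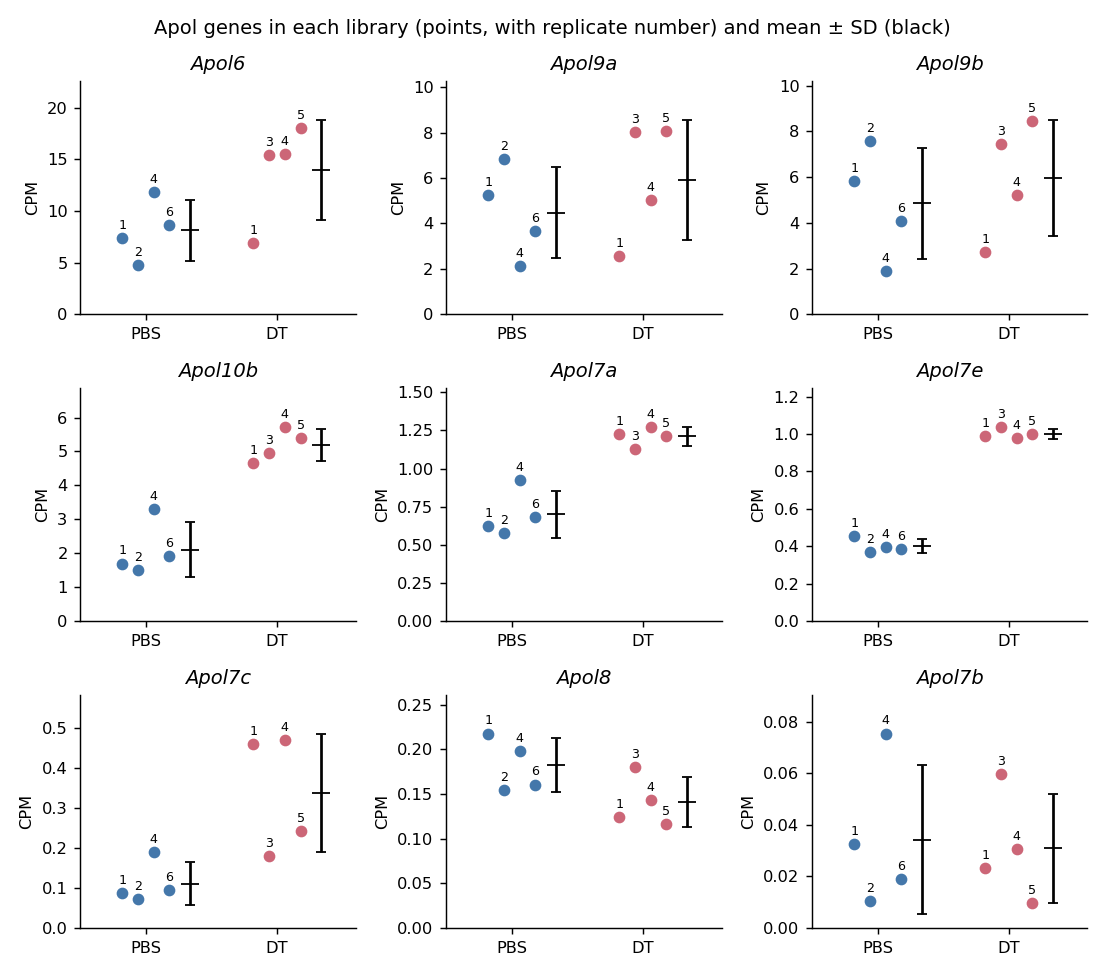
Level of each member in CPM (counts scaled to the TMM-adjusted library total, linear axes starting at 0 and scaled per gene) in the 4 PBS-labelled (blue) and 4 DT-labelled (red) libraries, with the replicate number at each point and the mean ± SD in black. Apol7e sits at 0.979 to 1.04 CPM in the DT-labelled and 0.371 to 0.457 CPM in the PBS-labelled libraries, while the groups of Apol9a and Apol9b overlap.

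Over all genes tested, edgeR called 73 higher and 1 lower in the DT-labelled libraries at an adjusted p under 0.05, which is 0.322% and 0.00441%. Among the 8 tested members 1, Apol7e, was called higher and 0 lower. DESeq2 called 3 members higher (Apol7a, Apol7e and Apol10b) against 1.04% of all genes, and limma voom called Apol7e against 0.225%. Neither called a member lower. At an unadjusted p under 0.05, 4 members were higher (Apol7a, Apol7c, Apol7e and Apol10b) and 0 lower, against 4.72% and 3.98% of all genes. Every DT-labelled library lay above every PBS-labelled library for 3 members and for 3.33% of all genes. The log2 fold change was positive for 7 of 8 members and for 51.4% of all genes, and its median was 0.78 over the members and 0.01 over all genes. The members were chosen on this comparison, so nothing is read from these shares. Leaving out any 1 of DT-labelled replicates 3, 4 and 5 or PBS-labelled replicates 1, 2 and 6 brought the number of members called by edgeR, and of all genes called, to 0. In these 6 fits 4 members and 1066 to 2047 of all genes had an unadjusted p under 0.05.

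**Figure D3:**
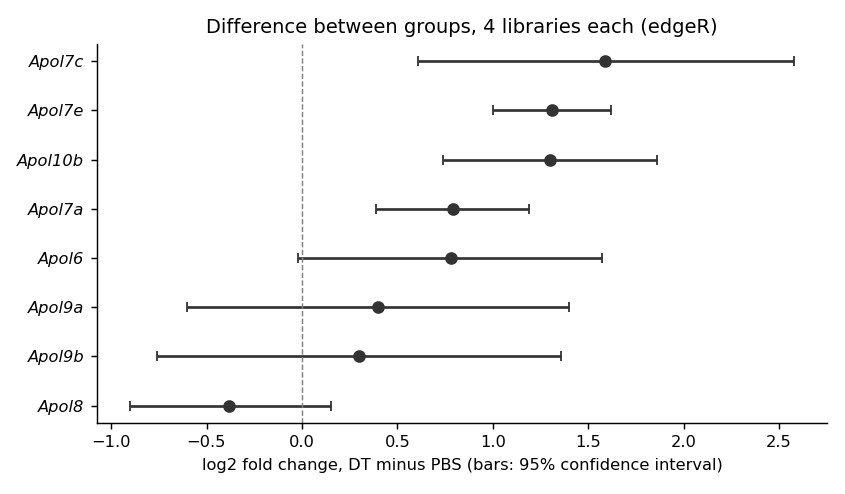
Log2 fold change of the 8 tested members, DT-labelled minus PBS-labelled libraries, from edgeR (points, 4 libraries per group, bars are 95% confidence intervals, the dashed line marks no difference). Apol7c, Apol7e and Apol10b lie at 1.59, 1.31 and 1.30, Apol9a and Apol9b at 0.40 and 0.30 with intervals that include 0, and Apol8 at -0.38.

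Summed over the 9 members, the family reached 19.7, 38.4, 34.4 and 42.5 CPM in the DT-labelled libraries and 21.6, 21.9, 21 and 19.6 CPM in the PBS-labelled libraries. The PBS-labelled sums were almost equal, yet their makeup was not. Apol9a and Apol9b together made up 51.4% and 65.9% of the family's CPM in PBS-labelled replicates 1 and 2 and 19.2% and 39.5% in replicates 4 and 6. Apol6 made up 34.2% and 21.8% in the first pair and 56.5% and 43.9% in the second. The sum of DT-labelled replicate 1 lay within the PBS-labelled range, and the other 3 DT-labelled sums lay above it.

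The makeup followed the conceptus score within the PBS-labelled libraries, a comparison that the choice of members did not use. The higher scores are those of replicates 1 and 2 (title suffix S1) and the lower those of replicates 4 and 6 (S2). Between these pairs the score and whatever the suffix marks cannot be told apart. Ordered from the lowest to the highest score (replicates 4, 6, 1 and 2), Apol9a and Apol9b stood higher at every step, ending 3.19-fold and 4.02-fold above the start. Apol6, Apol10b, Apol7c and Apol7a stood lower at every step, and the library with the lowest score was 2.49-fold, 2.2-fold, 2.62-fold and 1.6-fold above the one with the highest. Apol7e showed no such order, with 1.07-fold between the same libraries, and Apol8 and Apol7b also followed no single direction. Of all genes tested, 12.7% stood higher and 11.6% lower at every step of this order, so the pattern is common across the transcriptome. In the DT-labelled libraries, where the score spans a narrower range, no member followed a single direction over all 3 steps, against 7.57% and 7.07% of all genes. There Apol9a, Apol9b, Apol6 and Apol10b were lowest in replicate 1, the library with the lowest score. With 4 libraries a group these orders are given without a test.

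**Figure D4:**
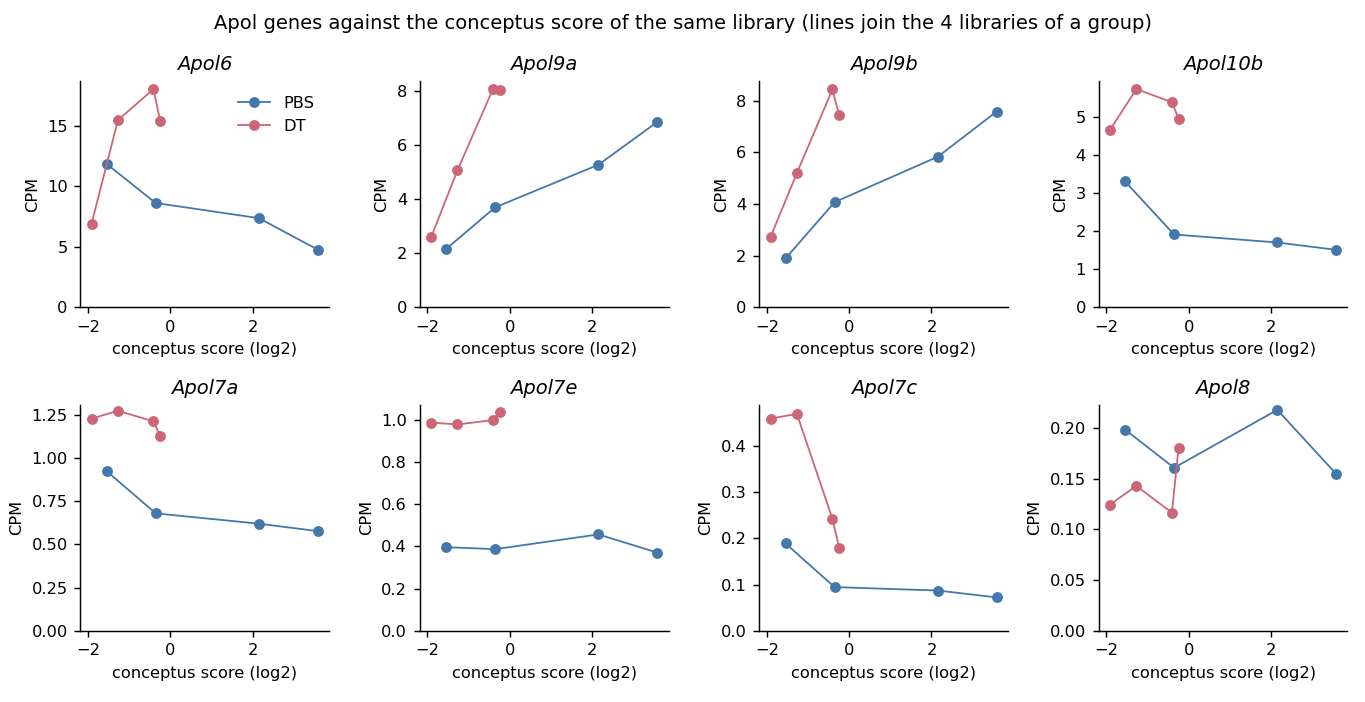
Level of the 8 tested members (CPM, linear axes from 0) against the conceptus score of the same library (mean centred log2 CPM of 14 conceptus genes), with lines joining the 4 PBS-labelled (blue) and the 4 DT-labelled (red) libraries. Apol9a and Apol9b climb 3.19-fold and 4.02-fold along the PBS-labelled line, Apol6 and Apol10b decline 2.49-fold and 2.2-fold, and Apol7e stays flat in both groups.

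The size of the group difference therefore depended on the libraries that stood apart, in opposite ways for different members. Without PBS-labelled replicates 1 and 2, the log2 fold change of Apol9a was 1.02 ± 0.51 (SE) in place of 0.40. That of Apol9b was 0.99 ± 0.53 (SE) in place of 0.30, and edgeR called 0 members. In the same fit Apol6 had 0.44 in place of 0.78, Apol10b 0.99 in place of 1.30, Apol7c 1.25 in place of 1.59 and Apol7a 0.59 in place of 0.79. Apol7e had 1.35 and Apol8 -0.35, close to their values with all libraries. Leaving out DT-labelled replicate 1 as well gave 1.27 for Apol9a, 1.24 for Apol9b, 0.67 for Apol6, 1.06 for Apol7c and 1.36 for Apol7e. With the conceptus score as a covariate and all 8 libraries, Apol9a had a log2 fold change of 1.13 ± 0.29 and Apol9b one of 1.13 ± 0.29 (SE), as large as those of Apol10b (1.03 ± 0.19) and Apol7c (1.05 ± 0.37). Apol7e was at 1.33 ± 0.16 in this fit, Apol7a at 0.59 ± 0.15 and Apol6 at 0.58 ± 0.36. Apol7e was the 1 member called there, and the edgeR adjusted p was 0.316 for Apol9a and 0.32 for Apol9b. The score is itself lower in the DT-labelled group on average, so the covariate and the treatment are not independent.

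**Figure D5:**
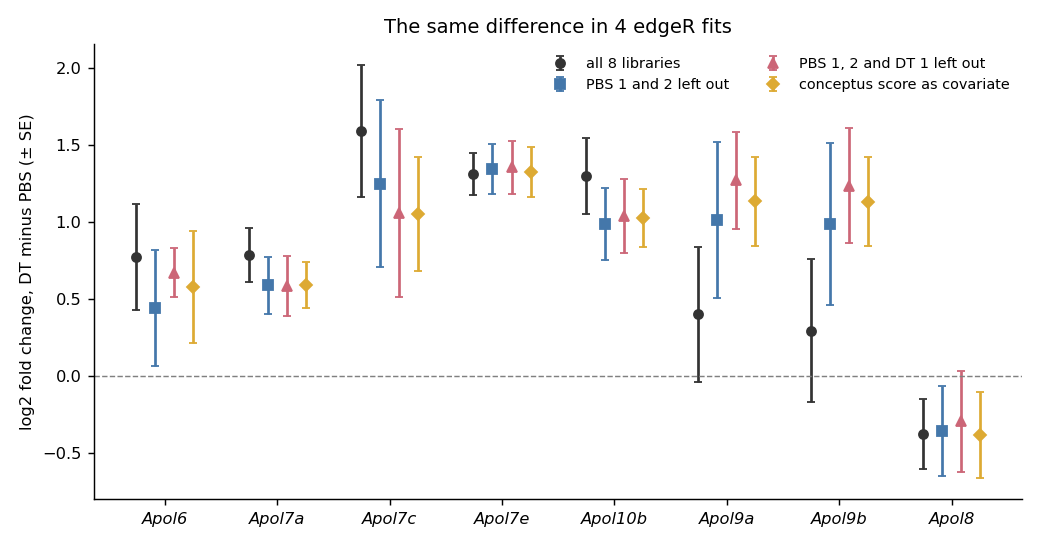
Log2 fold change of each tested member (DT-labelled minus PBS-labelled, bars are ± SE) in 4 edgeR fits: all 8 libraries, without PBS-labelled replicates 1 and 2, without these and DT-labelled replicate 1, and with the conceptus score as a covariate. Apol7e stays between 1.31 and 1.36, whereas Apol9a moves from 0.40 to values between 1.02 and 1.27.

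Interferons act through cell-surface receptors, Janus kinases and STAT and IRF transcription factors, several of which bind the ISRE. Of 3 tested ligand genes 0 passed by edgeR or limma voom, and DESeq2 called Ifng. By edgeR 1 was higher at an unadjusted p under 0.05, against 4.72% of all genes. Ifng, the interferon of T cells and NK cells, measured 0.148, 0.2, 0.214 and 0.291 CPM in the DT-labelled and 0.0762, 0.0619, 0.0661 and 0.0756 CPM in the PBS-labelled libraries. Every DT-labelled library was higher, from few counts, with a log2 difference of 1.59 ± 0.27 (SE; adjusted p = 0.0746 by edgeR). Ifne, the epithelial interferon of the reproductive tract, was at 0.82 ± 0.546 and 2.26 ± 1.56 CPM, and Ifnk at 1.45 ± 1.02 and 1.01 ± 0.0892 CPM (SD, n = 4 each), with overlapping groups. Ifnl2 and Ifnl3 had no counts in any library.

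Of 6 receptor genes 0 passed by edgeR, DESeq2 or limma voom, with 2 higher at an unadjusted p under 0.05, Il10rb and Ifnar2, at log2 fold changes of 0.23 ± 0.07 and 0.21 ± 0.07 (SE). Of 13 signal transducers edgeR called 1 higher, the transcription factor Irf1. It measured 32.2 ± 1.32 CPM in the PBS-labelled and 61.4 ± 12.3 CPM in the DT-labelled libraries (SD, n = 4 per group). Its log2 fold change was 0.93 ± 0.14 (SE, edgeR adjusted p = 0.0491). At an unadjusted p under 0.05, 7 transducers were higher. The share of all genes beside this count and those of the receptors and feedback inhibitors was 4.72%. Limma voom did not call Irf1, and DESeq2 called Irf1 and Irf7. Irf7 had a log2 fold change of 0.63 ± 0.12 and Irf9, the DNA-binding subunit of the complex that binds the ISRE, one of 0.44 ± 0.12 (SE). Of 7 feedback inhibitors 0 passed by edgeR, DESeq2 or limma voom, and 2 were higher at an unadjusted p under 0.05: Socs1, which blocks Janus kinases, at 0.47 ± 0.14, and the phosphatase gene Ptpn6 at 0.23 ± 0.08. The median log2 fold change was 0.17 over the receptors, 0.16 over the transducers and 0.08 over the inhibitors.

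The genes that tracked each abundant member most closely differed between the Apol9 pair and the rest. By Pearson correlation of log2 CPM over the 8 libraries, among 13855 genes, Apol9a ran closest to Dhx58 (r = 0.996), Ifit1 (0.982) and Oasl1 (0.98), which are interferon-stimulated antiviral genes. Apol9b ran closest to Dhx58 (0.987), Zc3hav1 (0.987), the zinc-finger antiviral protein, and Oasl1 (0.982). Dhx58 itself measured 12.1, 21.3, 16.6 and 21.8 CPM in the DT-labelled and 16.7, 19.6, 10.1 and 13.7 CPM in the PBS-labelled libraries, low in the same replicates as Apol9a and Apol9b. Apol10b ran closest to the death receptor gene Fas (0.983), the T cell adaptor gene Lat (0.98) and the protease inhibitor gene Serpinb1a (0.977). Lat measured 1.66, 1.68, 1.88 and 1.8 CPM in the DT-labelled and 0.522, 0.67, 1.06 and 0.652 CPM in the PBS-labelled libraries, and shared with Apol10b the high value of PBS-labelled replicate 4. Apol6 ran closest to Tssc4 (0.991), Rfxank (0.969), a factor for MHC class II promoters, and Syt13 (0.964). The correlations are descriptions over 8 libraries that share the group difference and the conceptus content.

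Taken as deviations from the group means, which removes the group difference, the nearest genes were others. They included Slc38a1 and Selenos for Apol9a (r = 0.998 for both), Serf2 and Cdr2 for Apol9b (0.997 and 0.996), Ndufb5, Fam118b and Snx10 for Apol6 (0.987 to 0.992), and Pofut2, Nuak2 and Cdk4 for Apol10b (0.982 to 0.987). None of the 3 antiviral genes named with Apol9a was among its first 3 by this measure. The first 3 had an r of 0.998 or more, and the r of the antiviral genes is not given here. Their absence therefore does not show a weaker link. Within each group Dhx58 ranked the libraries in the same order as Apol9a. Slc38a1 had a log2 fold change of -0.36 between the groups, opposite in sign to that of Apol9a.

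Other genes that carry the Apol name were described beside the members. Apol11b, in the same cluster at 77633946 to 77643286, measured 0.443, 0.939, 2.1 and 0.505 CPM in the DT-labelled and 0.359, 0.289, 0.0661 and 0.0472 CPM in the PBS-labelled libraries. All DT-labelled libraries were higher and differed 4.74-fold among themselves, and the log2 fold change of 2.40 ± 0.75 (SE) did not pass (edgeR adjusted p = 0.486). Its near copy Apol11a, 93.5% identical in coding sequence, had 23 counts over the DT-labelled and 2 over the PBS-labelled libraries and was not tested. Apol10a had a log2 fold change of 0.92 ± 0.78 (SE). The ISRE core was present once in the promoters of Apol10a, Apol11a and Apol11b too. These 3 also held the interferon-gamma activated site, at positions -241 to -233, which 0 of the 8 members with a promoter did. Apold1, an endothelial gene of chromosome 6 that shares only part of the name, was at 8.89 ± 1.63 and 9.71 ± 1.59 CPM (SD, n = 4 each). Of the 4 tested genes 0 passed by edgeR, DESeq2 or limma voom. By edgeR 1, Apol11b, was higher at an unadjusted p under 0.05, against 4.72% of all genes. The label Apol7d belongs in this annotation to an antisense transcript of chromosome 1 that overlaps Fn1, and is no neighbour of the family.

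Most genes around the cluster had log2 fold changes near 0. Of 13 tested protein-coding genes within 300 kb of the cluster, 0 passed by edgeR, DESeq2 or limma voom, 0 had an unadjusted p under 0.05, and the median log2 fold change was 0.04. The first 4 by p were Mb (0.65 ± 0.33), 1110038F14Rik (0.11 ± 0.06), Zfp647 (0.31 ± 0.19) and Rbfox2 (0.15 ± 0.10, all SE). Mb, which encodes myoglobin and overlaps Apol6 by 64 exon bases, measured 0.467, 0.859, 0.908 and 0.737 CPM in the DT-labelled and 0.457, 0.289, 0.746 and 0.387 CPM in the PBS-labelled libraries. It was lowest and highest in the same replicates of each group as Apol6, except that DT-labelled replicate 4 rather than 5 was the highest. Reads of Apol6 and Mb in the overlap cannot be told apart without a stated strand setting.

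Gene families linked to the members by name or by proposed function had few genes past the test. Of 13 tested plasma apolipoprotein genes 0 passed by edgeR or limma voom, and 2 were higher and 4 were lower at an unadjusted p under 0.05, while DESeq2 called Apod higher and Apoa4 lower. Apoa4 and Apob, both made by yolk sac, had log2 fold changes of -4.10 ± 1.12 and -2.66 ± 0.85 (SE). Apob measured 24.3, 56.4, 3.58 and 8.32 CPM in the PBS-labelled libraries, high in the same pair of replicates as the conceptus score, of which both genes are part. Of 18 BCL2 family genes, the regulators of mitochondrial cell death, edgeR called 1 higher, the survival gene Bcl2a1b (adjusted p = 0.0367). The PBS-labelled and DT-labelled means of Bcl2a1b were 0.441 ± 0.0384 and 0.96 ± 0.105 CPM (SD, n = 4 per group). Its near-identical copy Bcl2a1a did not pass by edgeR, at 1.48 ± 0.23 on the log2 scale (SE; adjusted p = 0.0504). DESeq2 called both copies higher and limma voom Bcl2a1b alone. Of 16 autophagy genes 0 passed by edgeR, DESeq2 or limma voom, 0 had an unadjusted p under 0.05, and the median log2 fold change was -0.13.

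The lists of immune cell markers differed in direction between the groups. The log2 fold change was positive for 12 of 15 T cell, 7 of 10 macrophage, 9 of 11 dendritic cell and 3 of 12 uterine NK cell genes. At an unadjusted p under 0.05, 11 T cell, 5 macrophage and 5 dendritic cell genes were higher, against 4.72% of all genes. Of these 3 lists 1 gene, of dendritic cells, was lower at that level, against 3.98% of all genes. Of 15 T cell genes 5 rose by edgeR (Cd3e, Cd5, Lck, Bcl11b and Cd8b1), 11 were called higher by DESeq2 and 4 by limma voom, and the summed level of the list was 38.9 to 45.7 CPM in the DT-labelled and 28.6 to 31.7 CPM in the PBS-labelled libraries. Of 10 macrophage genes 3 rose by edgeR (C1qa, C1qb and Aif1), 4 by DESeq2 (C1qc in addition) and 2 by limma voom (C1qa and Aif1), with sums of 464 to 489 and 339 to 426 CPM. Of 11 dendritic cell genes 1 rose by edgeR and limma voom, Xcr1, and 2 by DESeq2 (Xcr1 and Itgax), with sums of 65.3 to 105 and 51.9 to 67.5 CPM. No marker of these 3 lists was at 0 in any library. Of 12 uterine NK cell genes 0 passed by edgeR or limma voom, and 2 were higher and 5 were lower at an unadjusted p under 0.05. DESeq2 called Tbx21 of this list higher. Its summed levels overlapped between the groups, at 302 to 541 and 398 to 1200 CPM. Endothelial, epithelial, decidual stroma and myometrium lists had 0 genes past the test by edgeR, DESeq2 or limma voom, with 1 endothelial gene lower and no other at an unadjusted p under 0.05. The part of these cell types in the values of Apol7a, Apol7c, Apol7e and Apol10b was not tested.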

How the data were processed

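RNA from 8 whole uteri was sequenced as paired reads of about 75 bases, per the labels' protocols. Raw counts per Ensembl gene were deposited by the authors, without normalization, for each library and for the series, and the tables differed in 0 cells. The submitters' processing notes name Trimmomatic, HISAT2, featureCounts, SAMtools, DESeq2 and GRCm38. Their versions and roles, the strand setting and the handling of multi-mapping reads were not given in the sources used here. Of 49585 Ensembl IDs, 49326 matched the GENCODE mouse release 21 annotation, which gave symbols, coordinates, exon lengths and coding sequences. The other 259 were kept under their IDs.

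Counts were tested in R 4.3.3 with edgeR 4.0.16: filterByExpr (minimum count 10, minimum total 15), TMM scaling and the robust two-sided quasi-likelihood test with treatment as the only term, adjusted by Benjamini-Hochberg over all 22693 genes and called at an adjusted p under 0.05. The steps were run on simulated counts with the same dispersion for every gene and no difference in conceptus content. That run does not show how the test behaves with the libraries that stood apart. DESeq2 1.42.0, limma 3.58.1 (voom), other scalings, no filter, libraries left out, a replicate block and a conceptus covariate were alternatives. The labels name 4 and 4 females, and each library was taken as 1 female. The counts of any 2 libraries differed by a chi-square of at least 26.3 per degree of freedom (28 pairs), so none agreed within sampling noise.

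The members and lists were chosen with earlier results of these data known. All 9 members were named. Genes of like pattern are the 3 with the highest correlation among genes whose mean log2 CPM is 0 or more, leaving out predicted-model symbols, for members at that level. Of each pathway list the first 3 by unadjusted p were named, and 4 of the flanking genes. A few genes that the rule names, and 1 marker list, are not reported here. Called markers and members outside this rule were named after their values were seen. Promoters come from RefSeq, and coding sequences were aligned in Python 3.11.15 with Biopython 1.88, in place of the planned protein alignment. At this depth the counts of Apol7b, Apol7c and Apol8 limit their precision.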

Additional observations from a re-analysis of the deposited data

How the results depend on the processing

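Of the 8 tested members, 7 had a positive log2 fold change in all 17 alternative settings and Apol8 a negative one in all 17. The number of members called higher, 1 by edgeR with all libraries, was 3 with DESeq2, 0 to 2 with 1 library left out, 0 without PBS-labelled replicates 1 and 2, 0 without these and DT-labelled replicate 1, and 0 with the replicate block. At an unadjusted p under 0.05, 3, 6 and 3 members were higher in the last 3 of these fits. In either direction 857 of 23496, 1647 of 23130 and 279 of 22693 genes reached that level there. The adjusted p of Apol7e ranged from 2.63e-10 (DESeq2) to 0.996 (replicate block) over the alternatives, and it was called in 8 of 17. Apol10b was called in 2, by DESeq2 and without PBS-labelled replicate 4, and Apol7a in 1, by DESeq2. Over all genes, the 73 called higher became 267 with DESeq2, 47 with the conceptus covariate, 0 without PBS-labelled replicates 1 and 2, 0 with the block and 0 to 115 with 1 library left out. Without DT-labelled replicate 1 the count was 115 and without PBS-labelled replicate 4 it was 43. The 1 called lower became 71 with DESeq2, 2 with library-size scaling, 0 with the covariate, 0 with the block and 0 to 5 with 1 library left out. The smallest number of genes at an unadjusted p under 0.05 was 279, with the block. With library-size scaling the median over all genes was 0.12, against 0.01 with TMM, on the log2 scale. The median over the members was 0.69 to 0.98 with 1 library left out. The cause of these changes was not tested.

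The groups share replicate numbers 1 and 4, and the labels do not say what a number marks. The deviations of same-numbered libraries correlated at -0.49 and 0.32, against -0.60 to 0.59 for libraries with different numbers, so no pairing was shown. With the number as a block, the member median was 0.45 in place of 0.78.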
